A study of Homo sapiens with 6 samples.

Results

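The report describes 10 messenger RNAs that are reported targets of the miR-99/100 family of microRNAs: MTOR, IGF1R, FGFR3, SMARCA5, CTDSPL, FKBP5, THAP2, KBTBD8, PPP3CA and TRIB2. Members were taken by gene identifier from the table of read counts, where each had 1 of the 27745 gene rows. The RNA came from MDA-MB-231, an established human cell line of triple-negative breast cancer. Cells were infected with lentivirus carrying a short hairpin RNA (shRNA) in the pLKO.1 vector and collected 72 h later. The control was sh-TRC, and sh-MIR100HG-1 and sh-MIR100HG-2 were different shRNAs against MIR100HG. Each of the 3 groups had 2 replicates, so all 6 libraries carried lentivirus and an shRNA. The study calls the knockdown replicates biological and does not say this of the controls used here, so p-values measure the spread between these libraries, which may in part be technical. Each library came from a pool of infected cells, so fewer transcripts in each cell and fewer cells with the transcript cannot be told apart.

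MIR100HG is a long non-coding RNA whose locus hosts miR-100, let-7a-2 and miR-125b-1. A microRNA guides an Argonaute protein to messenger RNAs, mostly through pairing of its seed, bases 2 to 8, with the 3′UTR, and lowers the level or the translation of the message. The miR-99/100 family is known in breast and other tissues for targets in growth factor and mTOR signalling. The design lets the question be put whether these messages changed when the host transcript was knocked down. Mature microRNAs and proteins were not analysed here, so whether miR-100 fell with its host cannot be told from these data. By qPCR the study saw no change of miR-100, miR-125b or let-7a in MDA-MB-231 cells that overexpressed MIR100HG. From this it proposes that MIR100HG does not act through the microRNAs it hosts.

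The mature sequences are shown because a single seed, in capitals, defines the family, and because miR-125b and let-7a share the host with miR-100 but not the seed. They are RefSeq sequences, written 5′ to 3′.
hsa-miR-100-5p: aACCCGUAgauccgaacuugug
hsa-miR-99a-5p: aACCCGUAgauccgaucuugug
hsa-miR-99b-5p: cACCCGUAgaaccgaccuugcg
hsa-miR-125b-5p: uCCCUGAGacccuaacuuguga
hsa-let-7a-5p: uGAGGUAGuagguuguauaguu

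The seed of miR-100 pairs with the DNA letters TACGGGT. These letters, followed by A (an 8mer) or by another base (a 7mer-m8), and the letters ACGGGTA alone (a 7mer-A1), were searched on the transcript strand of the longest annotated 3′UTR of each gene. Of the 10 members, 9 had 1 site there. FKBP5 had none in its longest 3′UTR of 6419 bases, and its site lay in a shorter annotated 3′UTR of 2250 bases. The sites are shown because they are what the members share. Each is 22 bases of the GRCh37 genome on the transcript's strand, within the 3′UTR, with the letters that match the seed or its flanking A in capitals.
MTOR (7mer-m8, chr1:11167240-11167261, minus strand): cataactttagaaaTACGGGTt
IGF1R (8mer, chr15:99506259-99506280, plus strand): taagtccagtagatTACGGGTA
FGFR3 (8mer, chr4:1809512-1809533, plus strand): tcagagactgaaatTACGGGTA
SMARCA5 (7mer-m8, chr4:144474374-144474395, plus strand): gtagttctttaattTACGGGTc
CTDSPL (8mer, chr3:38024889-38024910, plus strand): ttttttaaggtaaaTACGGGTA
FKBP5 (8mer, shorter 3′UTR, chr6:35542235-35542256, minus strand): tgaatttcagtcctTACGGGTA
THAP2 (8mer, chr12:72074220-72074241, plus strand): tctcaatattagaaTACGGGTA
KBTBD8 (8mer, chr3:67059174-67059195, plus strand): cttttaattttaaaTACGGGTA
PPP3CA (7mer-m8, chr4:101945691-101945712, minus strand): ctttgtatatcagtTACGGGTt
TRIB2 (7mer-m8, chr2:12882142-12882163, plus strand): gccagtacttcaatTACGGGTt

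A match is a description of letters, not evidence that the site was used. A 7mer or 8mer of this seed stood in the longest 3′UTR of 320 of the 13991 tested genes with an annotated 3′UTR (2.29%), and an 8mer in 44 (0.314%). The letters for miR-125b (CTCAGGG or TCAGGGA) were found in 25.7% of these genes and in IGF1R, FGFR3, CTDSPL, FKBP5 and TRIB2 among the members. The letters for let-7a (CTACCTC or TACCTCA) were found in 18.9%, and in IGF1R, SMARCA5, FKBP5, THAP2, PPP3CA and TRIB2. IGF1R held 3 of the let-7a sites.

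Levels are given as CPM, read counts scaled to a common library size after TMM normalization, which aligns most genes between libraries. Library totals ranged from 43804736 to 64588388 counts. The targeted gene, MIR100HG (chr11:121899035-122427429, minus strand, GRCh37), stood at 41.8 and 58.5 CPM in sh-TRC replicates 1 and 2, at 15.2 and 13.2 CPM in sh-MIR100HG-1 and at 16.6 and 10.4 CPM in sh-MIR100HG-2. All 4 knockdown libraries lay below both controls, with a log2 fold change (log2FC) of -1.86 ± 0.25 (SE, 4 against 2 libraries) for both shRNA groups against control. By edgeR's quasi-likelihood test its unadjusted p was 5.6e-05 and its adjusted p 0.381, so the call was not made after Benjamini-Hochberg adjustment over the 15372 genes tested. Of the markers fixed for MDA-MB-231, VIM, CD44, AXL, CAV1, EGFR, TGFBI and MSN were above 1 CPM in every library. Of the luminal markers, the progesterone receptor gene PGR was at 0 CPM in 5 libraries and at 0.0236 in the other, while ERBB2 was at 71.6 to 116 CPM.

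Before the values of the members, 2 libraries have to be set apart. sh-TRC replicate 2 and sh-MIR100HG-1 replicate 1, a control and a knockdown library, shared 61 genes at 1 CPM or more that were all under 0.1 CPM in the other 4 libraries. No other pair of libraries and no single library had such a gene at these limits, which were set after the values were seen. The 61 genes included receptor kinases (KIT, FLT3, FLT4, RET, FGFR2, NTRK2, NTRK3) and drug-metabolizing enzymes (CYP3A4, UGT1A1). KIT stood at 7.17 to 7.44 CPM in these 2 libraries and at 0 in the other 4. Over the 61 genes the median level was 2.36 CPM in sh-TRC replicate 2, 2.62 CPM in sh-MIR100HG-1 replicate 1 and 0 CPM in each of the others. Of the 7 luminal markers, 4 (ESR1, GATA3, FOXA1 and CDH1) had both of these libraries above all 4 others, and PGR, ERBB2 and EPCAM did not. ESR1 was at 2.38 to 2.78 CPM in the pair and at 0.12 to 0.59 CPM in the other 4, and FOXA1 at 1.22 CPM against 0.0236 to 0.16 CPM. The summed level of the 7 per kilobase was 16.6 to 19.1 in sh-TRC, 15.9 to 19.2 in sh-MIR100HG-1 and 14.6 to 14.7 in sh-MIR100HG-2. The 61 genes held 0.0182% and 0.0192% of all counts of the 2 libraries. Where these reads came from was not tested. Among the members, FGFR3 alone had both libraries above all 4 others, a pattern found in 3.81% of the genes tested. Each member's change is therefore given with all 6 libraries and without these 2, which leaves 3 knockdown libraries against 1 control, in a fit with 1 residual degree of freedom that assumes that the lone libraries vary like the others.

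**Figure D1:**
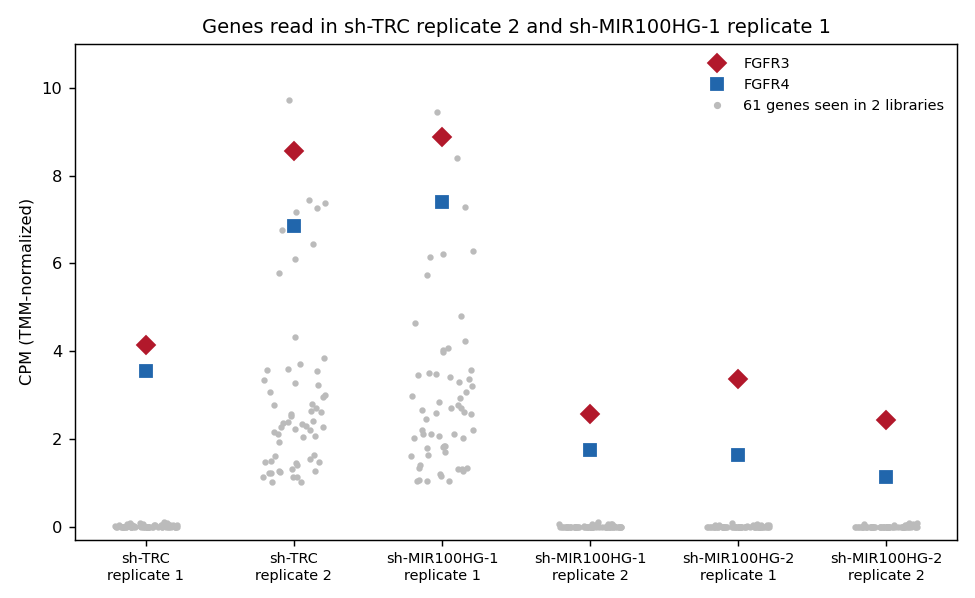
Levels in CPM (vertical axis, linear) of the 61 genes seen in 2 libraries (grey points) and of FGFR3 (red diamonds) and FGFR4 (blue squares) in each of the 6 libraries. The grey points lie between 1.02 and 9.73 CPM in sh-TRC replicate 2 and sh-MIR100HG-1 replicate 1 and under 0.1 CPM elsewhere, and FGFR3 is highest in the same pair, at 8.56 and 8.88 CPM.

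All 10 members passed the filter on low counts. The edgeR quasi-likelihood test called 0 of them at an adjusted p of 0.05 for both shRNA groups against control, where 0% of all genes tested were called, and likewise 0 with a likelihood ratio test or DESeq2. At an unadjusted p under 0.05, 1 member was called, TRIB2, which was higher, beside 7.68% of all genes in either direction and 3.23% higher. Estimates were above 0 for 8 members and below 0 for 2, FGFR3 and CTDSPL. The median log2FC of the members was 0.20, and that of all genes tested was -0.04, with 45.6% of genes above 0. The 4 knockdown libraries lay above both controls for 2 members, KBTBD8 and TRIB2, and below both for 0 (with RLE size factors in place of TMM they also lay above for PPP3CA), whereas groups did not overlap for 17.5% of all genes and 8.4% were higher in this way. Without the 2 libraries set apart, 9 members were above 0 and FGFR3 below, with a median of 0.21, and 1 member again had an unadjusted p under 0.05, beside 4.96% of all genes and 1.66% higher. The 3 knockdown libraries that were left lay above the lone control for 4 members (MTOR, IGF1R, KBTBD8 and TRIB2) and below it for FGFR3, beside 50.6% of all genes that did not overlap.

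**Figure D2:**
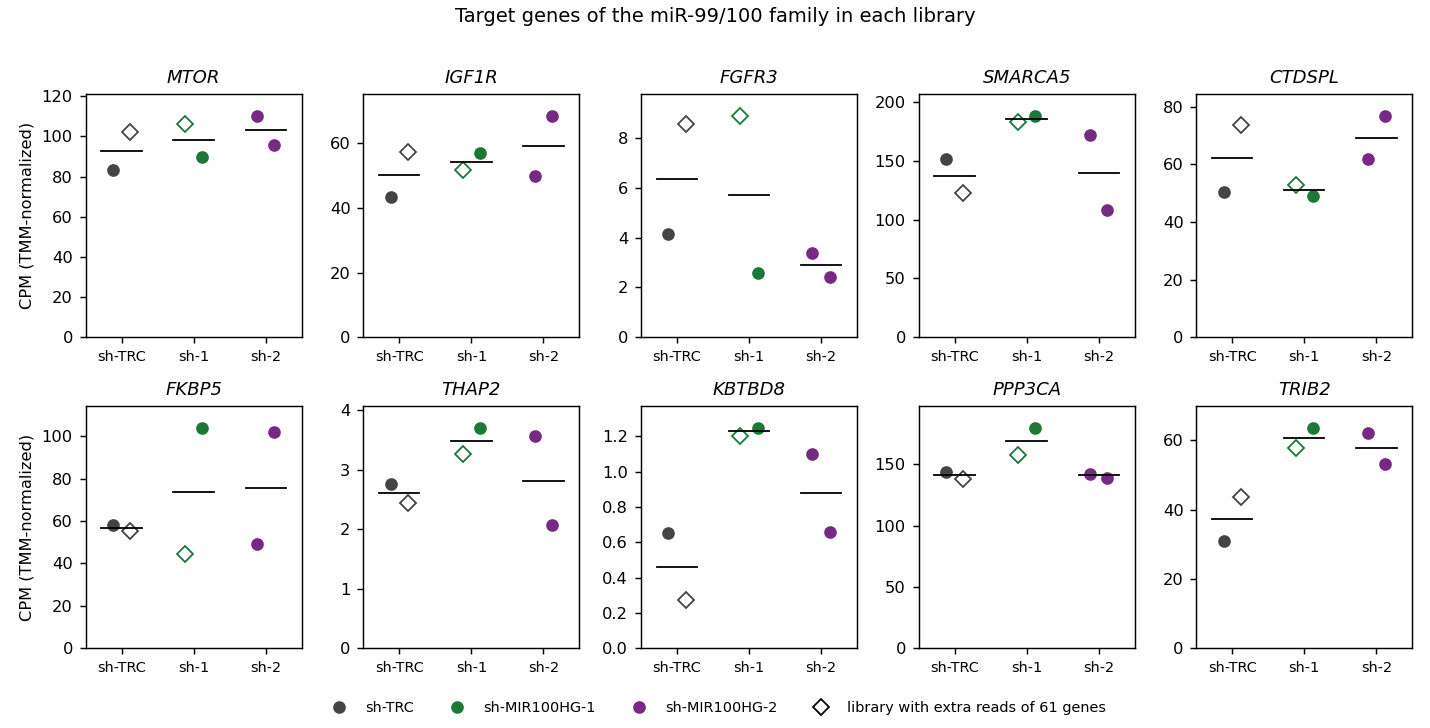
Levels in CPM (vertical axes, linear, starting at 0) of the 10 target genes in each library, with replicate 1 left and replicate 2 right within each of the groups sh-TRC, sh-MIR100HG-1 (sh-1) and sh-MIR100HG-2 (sh-2). Lines mark group means and open diamonds mark the 2 libraries with extra reads of 61 genes. KBTBD8 and TRIB2 have all 4 knockdown libraries above both controls (as PPP3CA does under RLE scaling), and FKBP5 separates replicate 2 from replicate 1 in both shRNA groups.

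Among the growth factor receptors, FGFR3, a receptor tyrosine kinase for fibroblast growth factors (chr4:1795034-1810599, plus strand), was at 4.15 and 8.56 CPM in sh-TRC, 8.88 and 2.57 CPM in sh-MIR100HG-1 and 3.37 and 2.42 CPM in sh-MIR100HG-2, in the order of replicates 1 and 2. The high values were those of the 2 libraries set apart, and both sh-MIR100HG-2 libraries lay below both controls. Its log2FC was -0.64 ± 0.50 (SE) for both shRNA groups together (edgeR adjusted p = 0.806). The sh-MIR100HG-1 group alone gave -0.15 and the sh-MIR100HG-2 group -1.14, and the difference between the shRNAs was -0.99 ± 0.60 (unadjusted p = 0.135). Leaving out sh-TRC replicate 2 alone moved the value for both groups to -0.03, and leaving out sh-MIR100HG-1 replicate 1 alone moved it to -1.22. Without the 2 libraries the values were -0.60 ± 0.55, -0.69, -0.52 and, between the shRNAs, 0.17 ± 0.60. The sign of the difference between the shRNAs thus turned when these libraries were left out, and its size under either fit was within 2 SE of 0.

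Of the paralogs of FGFR3, FGFR4 and FGFR2 were high in the same pair of libraries, and FGFR2 was among the 61 genes. FGFR4 was at 6.86 and 7.39 CPM in sh-TRC replicate 2 and sh-MIR100HG-1 replicate 1 and at 1.12 to 3.55 CPM in the other 4. FGFR2 was at 6.29 to 7.37 CPM in the pair and at 0 to 0.0799 CPM elsewhere. The mean of the pair exceeded that of the other libraries by 5.59 CPM for FGFR3, 5.11 CPM for FGFR4 and 6.79 CPM for FGFR2. FGFR1 was at 162 to 186 CPM in the pair and at 157 to 247 CPM elsewhere, so its ranges overlapped. The list of FGF receptors and signalling partners had 11 tested genes. Of these, 1 was higher and 1 lower at an unadjusted p under 0.05 after knockdown, beside 7.68% of all genes. Together these list genes numbered 4 without sh-MIR100HG-1 replicate 1 and 0 without sh-TRC replicate 1 or sh-MIR100HG-1 replicate 2. The count was 1 without sh-TRC replicate 2 or sh-MIR100HG-2 replicate 2. SPRY4, an inhibitor of receptor tyrosine kinase signalling, had 214 and 245 CPM in sh-TRC and 317 to 352 CPM in the 4 knockdown libraries (log2FC 0.54, unadjusted p = 0.0142, edgeR adjusted p = 0.554). SPRY1, of the same family, was at 36.4 and 37.3 CPM in sh-TRC, at 41.6 and 22.5 CPM in sh-MIR100HG-1 and at 19.9 and 13.8 CPM in sh-MIR100HG-2, with a log2FC of -0.67 (unadjusted p = 0.0426).

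IGF1R, the receptor for insulin-like growth factors (chr15:99192200-99507759, plus strand), was at 43.3 and 57.4 CPM in sh-TRC, 51.8 and 56.9 CPM in sh-MIR100HG-1 and 49.8 and 68.3 CPM in sh-MIR100HG-2. All groups overlapped. Its log2FC was 0.17 ± 0.22 (SE, 95% interval -0.33 to 0.67, edgeR adjusted p = 0.892), and 0.42 ± 0.37 without the 2 libraries set apart. Leaving out sh-TRC replicate 1 gave -0.02, so the sign rested on that control. INSR, the paralog that binds insulin, had a log2FC of -0.14 ± 0.19.

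Of 12 tested genes of the IGF list, 9 had estimates below 0, while 45.6% of all genes tested were above 0. At an unadjusted p under 0.05, 3 were lower, all binding proteins, and 0 higher, beside 7.68% of all genes in either direction. The list count was 2 to 4 when 1 library was left out, and 0 passed adjustment in edgeR. IGFBP1, a secreted protein that binds insulin-like growth factors, was at 33.4 and 27.5 CPM in sh-TRC, 15 and 24.5 CPM in sh-MIR100HG-1 and 7.74 and 7.59 CPM in sh-MIR100HG-2 (log2FC -1.31, unadjusted p = 0.000594, edgeR adjusted p = 0.381). IGFBP3, the main carrier of these factors in serum, was at 57.2 and 60.2 CPM in sh-TRC and at 34 to 43.1 CPM in the knockdown libraries (log2FC -0.63, unadjusted p = 0.00586). IGFBP6, which binds IGF2 preferentially, had a log2FC of -1.05, with controls at 220 and 655 CPM that enclosed the 340 and 347 CPM of sh-MIR100HG-2. IGF1, a ligand, was at 0.948 to 1.32 CPM in the 2 libraries set apart and at 0 to 0.0744 CPM elsewhere.

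MTOR, the kinase of the mTORC1 and mTORC2 complexes that set cell growth by nutrients and growth factors (chr1:11166592-11322564, minus strand), was at 83.3 and 102 CPM in sh-TRC, 106 and 90 CPM in sh-MIR100HG-1 and 110 and 95.8 CPM in sh-MIR100HG-2. The groups overlapped. Its log2FC was 0.12 ± 0.19 (SE, 95% interval -0.32 to 0.56, edgeR adjusted p = 0.915), 0.21 ± 0.34 without the 2 libraries set apart and -0.02 without sh-TRC replicate 1. Exons of the opposite-strand gene ANGPTL7 cover 1.13% of its exonic bases, and whether counting used strand is not given in the sources used here. The partner subunits RPTOR (log2FC -0.16 ± 0.25) and RICTOR (-0.16 ± 0.31) also had estimates within 1 SE of 0.

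Of 31 tested genes of mTOR complexes and regulators, 2 were higher and 0 lower at an unadjusted p under 0.05, beside 7.68% of all genes. The count was 4 with the likelihood ratio test, 5 with DESeq2, 6 without sh-MIR100HG-2 replicate 1 and 1 without either control, sh-MIR100HG-1 replicate 2 or sh-MIR100HG-2 replicate 2. EIF4EBP2, a repressor of cap-dependent translation, was at 121 and 179 CPM in sh-TRC, 314 and 241 CPM in sh-MIR100HG-1 and 387 and 294 CPM in sh-MIR100HG-2. Every knockdown library lay above both controls, with a log2FC of 1.04 ± 0.25 (unadjusted p = 0.00258, edgeR adjusted p = 0.446). Its paralog EIF4EBP1 was at 68.7 and 67.8 CPM in sh-TRC and at 71.6 to 138 CPM after knockdown (log2FC 0.61, unadjusted p = 0.0498).

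TRIB2, a pseudokinase that acts as a scaffold for the COP1 ubiquitin ligase (chr2:12857015-12882860, plus strand), was the member with the smallest p. It was at 31.1 and 43.7 CPM in sh-TRC, 57.8 and 63.7 CPM in sh-MIR100HG-1 and 62.2 and 53.2 CPM in sh-MIR100HG-2, so all 4 knockdown libraries stood above both controls. Its log2FC was 0.66 ± 0.21 (SE, 95% interval 0.17 to 1.15), a 1.58-fold higher level, with an unadjusted p of 0.0144 and an edgeR adjusted p of 0.554, and its p ranked 397 among the 15372 genes. By shRNA the log2FC was 0.70 and 0.62, and the difference between the shRNAs was -0.08 ± 0.24. The exact permutation test of 4 against 2 libraries gave 0.0667, the smallest p its 15 splits allow. Without the 2 libraries set apart the log2FC was 0.96 ± 0.37 (unadjusted p = 0.0216, adjusted p = 0.927). It was 0.44 without sh-TRC replicate 1 (unadjusted p = 0.132 in edgeR) and 0.93 without sh-TRC replicate 2.

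The other tribbles genes were more variable. TRIB3, which binds AKT, was at 51.4 and 36.6 CPM in sh-TRC, 84.5 and 91.9 CPM in sh-MIR100HG-1 and 34.8 and 110 CPM in sh-MIR100HG-2 (log2FC 0.86 ± 0.41). TRIB1 had a log2FC of 0.53 ± 0.33, and its groups overlapped. Of the 8 tested genes of the tribbles list, TRIB2 alone had an unadjusted p under 0.05, beside 7.68% of all genes. The count was 3 without sh-MIR100HG-2 replicate 1 and 0 without sh-TRC replicate 1.

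KBTBD8, a substrate adaptor of the CUL3 ubiquitin ligase known from neural crest specification (chr3:67048731-67061634, plus strand), was the least abundant member per length and had the largest estimate. It was at 0.651 and 0.272 CPM in sh-TRC, 1.2 and 1.25 CPM in sh-MIR100HG-1 and 1.1 and 0.659 CPM in sh-MIR100HG-2. These values rest on 16 to 80 counts per library, and the lowest knockdown library exceeded the highest control by less than 0.01 CPM. The log2FC was 1.17 ± 0.54 (SE, 95% interval -0.07 to 2.41, unadjusted p = 0.0614, edgeR adjusted p = 0.665). The lowest control was sh-TRC replicate 2, and without the 2 libraries set apart the log2FC was 0.69 ± 0.78. Without sh-TRC replicate 1 it was 1.93 and without sh-TRC replicate 2 it was 0.67. The unadjusted p of KBTBD8 was 0.0423 by edgeR's likelihood ratio test and 0.0357 by DESeq2. None of the 11 tested genes of the KBTBD and CUL3 list passed the limit of 0.05 in the quasi-likelihood test.

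FKBP5, a co-chaperone of HSP90 that is induced by and restrains the glucocorticoid receptor (chr6:35541362-35696360, minus strand), divided the knockdown libraries by replicate number rather than by shRNA. It was at 58.2 and 55.2 CPM in sh-TRC, 44.4 and 104 CPM in sh-MIR100HG-1 and 49.1 and 102 CPM in sh-MIR100HG-2. Both knockdown libraries of replicate 1 lay below the controls and both of replicate 2 above them, at 2.33 and 2.07 times replicate 1 within their own groups, while the ratio between the controls was 0.948. Replicate 2 was at 2 times replicate 1 or more in both shRNA groups for 171 genes tested (1.11%), and the reverse held for 327 (2.13%). AGO2, which encodes an Argonaute protein and is on the further target list, was also higher in replicate 2 of both shRNA groups. It was at 91.1 and 285 CPM in sh-MIR100HG-1 and 138 and 354 CPM in sh-MIR100HG-2, against 111 and 121 CPM in sh-TRC. This gene was picked after its values were seen. The labels give no shared batch for a replicate number, and the part of any batch was not tested.

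Over both shRNA groups the log2FC of FKBP5 was 0.40 ± 0.38 (SE, edgeR adjusted p = 0.849), and it was 0.60 ± 0.42 without the 2 libraries set apart. It was 0.03 without sh-MIR100HG-1 replicate 2 and 0.08 without sh-MIR100HG-2 replicate 2. Of the 13 tested genes of the glucocorticoid list, 9 had estimates above 0 and 4 below, and 0 had an unadjusted p under 0.05 (4 without sh-TRC replicate 1 and 1 without sh-MIR100HG-2 replicate 1). TSC22D3, an induced target of the receptor, was at 44.6 and 21.4 CPM in sh-TRC, 52.1 and 102 CPM in sh-MIR100HG-1 and 24.7 and 49.9 CPM in sh-MIR100HG-2. MT2A, a metallothionein also induced by the receptor, had a log2FC of 0.34 ± 0.24, and FKBP4, the paralogous co-chaperone, of 0.16 ± 0.20.

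SMARCA5, the ATPase of ISWI chromatin remodelling complexes (chr4:144434616-144478639, plus strand), was at 152 and 123 CPM in sh-TRC, 183 and 188 CPM in sh-MIR100HG-1 and 172 and 108 CPM in sh-MIR100HG-2. Both sh-MIR100HG-1 libraries lay above the controls, and the sh-MIR100HG-2 libraries lay on either side of them. Its log2FC was 0.43 ± 0.27 for sh-MIR100HG-1, 0.03 ± 0.27 for sh-MIR100HG-2 and 0.23 ± 0.23 for both (edgeR adjusted p = 0.856), and the difference between the shRNAs was -0.41 ± 0.27 (unadjusted p = 0.162). Without the 2 libraries set apart the value for both was 0.09 ± 0.36. Its paralog SMARCA1 was at 113 and 86.8 CPM in sh-TRC and at 31.5 to 82 CPM in the knockdown libraries (log2FC -0.66 ± 0.30, unadjusted p = 0.0616). BAZ1A, a partner of SMARCA5 in the ACF and CHRAC complexes, had a log2FC of 0.44 ± 0.27. BAZ2A, the partner in the nucleolar remodelling complex and itself a reported miR-99/100 target, was at 210 and 240 CPM in sh-TRC and at 243 to 408 CPM after knockdown (log2FC 0.53, unadjusted p = 0.0486). It alone of 12 tested genes on the list had an unadjusted p under 0.05, beside 7.68% of all genes. The list count was 3 without sh-MIR100HG-2 replicate 1 and 0 without sh-TRC replicate 2 or replicate 2 of either shRNA.

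PPP3CA, the catalytic subunit of the calcium-activated phosphatase calcineurin (chr4:101944566-102269435, minus strand), was the most abundant member per length and had the smallest SE. It was at 144 and 138 CPM in sh-TRC, 158 and 180 CPM in sh-MIR100HG-1 and 142 and 139 CPM in sh-MIR100HG-2. The sh-MIR100HG-1 libraries lay above the controls, and the sh-MIR100HG-2 libraries lay between them, or above them with RLE size factors in place of TMM. Its log2FC was 0.13 ± 0.17 (SE, 95% interval -0.27 to 0.52, edgeR adjusted p = 0.897) and 0.14 ± 0.33 without the 2 libraries set apart, and 0.26 and -0.01 by shRNA. Exons of the opposite-strand transcript FLJ20021 cover 0.882% of its exonic bases.

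In the calcineurin list, 1 of 14 tested genes was higher and 2 lower at an unadjusted p under 0.05, beside 7.68% of all genes. Together these list genes numbered 1 without sh-TRC replicate 2 or sh-MIR100HG-1 replicate 2. PPP3R1, the regulatory subunit that binds PPP3CA, was at 51.6 and 55.3 CPM in sh-TRC, 68.5 and 92 CPM in sh-MIR100HG-1 and 82.6 and 91 CPM in sh-MIR100HG-2 (log2FC 0.64, unadjusted p = 0.012, edgeR adjusted p = 0.538). NFATC1, a transcription factor that calcineurin activates, was at 2.29 and 3.33 CPM in sh-TRC and at 0.992 to 1.43 CPM in the knockdown libraries (log2FC -1.14, unadjusted p = 0.015). RCAN2, an inhibitor of calcineurin, was under 0.4 CPM in every library (log2FC -1.66, unadjusted p = 0.0291). RCAN1, the inhibitor that NFAT induces, had a log2FC of 0.72 ± 0.36, and the second catalytic subunit PPP3CB of 0.14 ± 0.19.

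CTDSPL, a small phosphatase that acts on RNA polymerase II and the retinoblastoma protein (chr3:37903451-38025960, plus strand), was at 50.5 and 73.7 CPM in sh-TRC, 52.9 and 49 CPM in sh-MIR100HG-1 and 62 and 76.7 CPM in sh-MIR100HG-2. Its log2FC was -0.06 ± 0.22 (SE, edgeR adjusted p = 0.966), -0.29 for the first shRNA and 0.16 for the other, and the difference between the shRNAs was 0.44 ± 0.25 (unadjusted p = 0.115). Without the 2 libraries set apart the value was 0.21 ± 0.35, so its sign was not fixed by these data. CTDSP1 and CTDSP2, paralogs of the same activity, had log2FC of 0.20 ± 0.24 and -0.02 ± 0.21, and 0 of the 7 tested genes on this list had an unadjusted p under 0.05.

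THAP2, a zinc finger protein of the THAP family (chr12:72056789-72074419, plus strand), was at 2.77 and 2.45 CPM in sh-TRC, 3.27 and 3.71 CPM in sh-MIR100HG-1 and 3.57 and 2.08 CPM in sh-MIR100HG-2, from 104 to 217 counts. Both sh-MIR100HG-1 libraries lay above the controls and the sh-MIR100HG-2 libraries lay on either side. The log2FC was 0.26 ± 0.35 (SE, edgeR adjusted p = 0.895) and 0.22 ± 0.59 without the 2 libraries set apart. A same-strand gene, ENSG00000258064, covers 3.72% of its exonic bases, so its reads are not fully separable. The other THAP genes had log2FC from -0.59 (THAP9) to 0.29 (THAP1), and 0 of the 12 tested had an unadjusted p under 0.05.

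**Figure D3:**
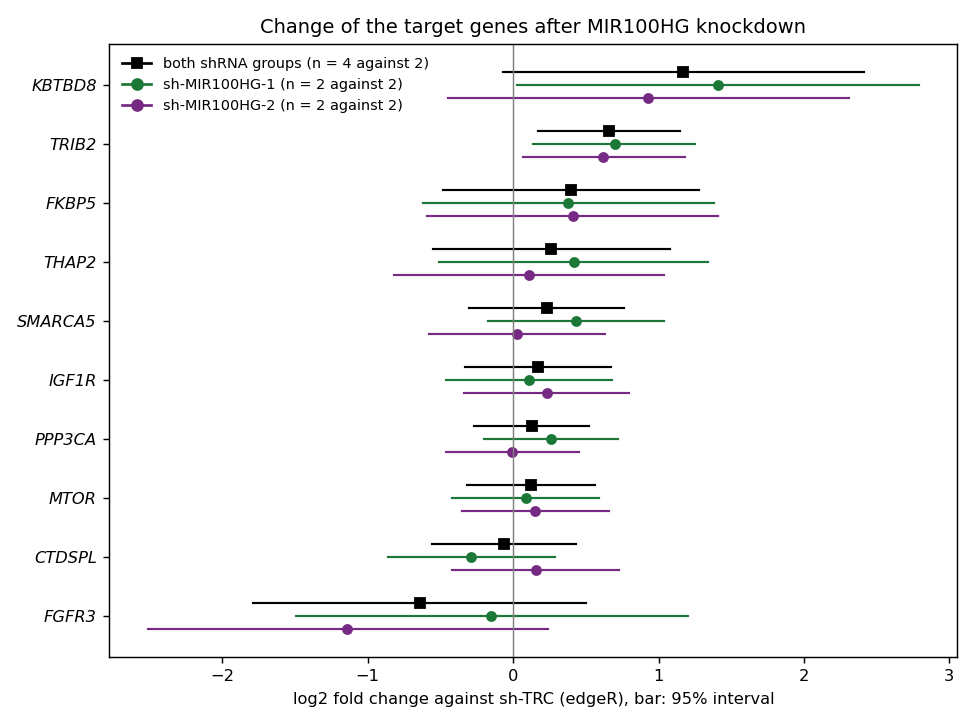
log2FC against sh-TRC (horizontal axis) with 95% intervals from the edgeR fit, for both shRNA groups together (black), sh-MIR100HG-1 (green) and sh-MIR100HG-2 (purple). For both groups together the interval of TRIB2, 0.17 to 1.15, excludes 0, and that of KBTBD8, -0.07 to 2.41, does not.

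Each shRNA was also compared with control on its own. The edgeR test called 0 members at an adjusted p of 0.05 in either comparison, with 0% of all genes called in each. With sh-MIR100HG-1, KBTBD8 (unadjusted p = 0.046) and TRIB2 (unadjusted p = 0.0194) were higher at an unadjusted p under 0.05, beside 6.87% of all genes in either direction and 3.1% higher. Without the 2 libraries set apart only TRIB2 was, beside 3.08% of all genes and 1% higher. With sh-MIR100HG-2, TRIB2 was again (unadjusted p = 0.0316), beside 8.86% of all genes and 3.71% higher.

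The shRNA groups did not overlap with control for 5 members with sh-MIR100HG-1, all higher (SMARCA5, THAP2, KBTBD8, PPP3CA and TRIB2), beside 40.5% of all genes and 20.2% higher. With sh-MIR100HG-2 this held for 2 higher (KBTBD8 and TRIB2) and 1 lower (FGFR3), beside 38.5% of all genes, 18.2% higher and 20.4% lower. The 2 comparisons share their controls, and the estimates had the same sign for 8 members and opposite signs for CTDSPL and PPP3CA. In the direct comparison of sh-MIR100HG-2 with sh-MIR100HG-1, 0 members were called at an adjusted p of 0.05 (0% of all genes) or at an unadjusted p under 0.05 (9.45% of all genes), and groups did not overlap for 1 member higher (CTDSPL) and 3 lower (SMARCA5, KBTBD8 and PPP3CA), beside 43.9% of all genes, 20.6% higher and 23.3% lower. A difference between the shRNAs was thus not shown for any member.

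**Figure D4:**
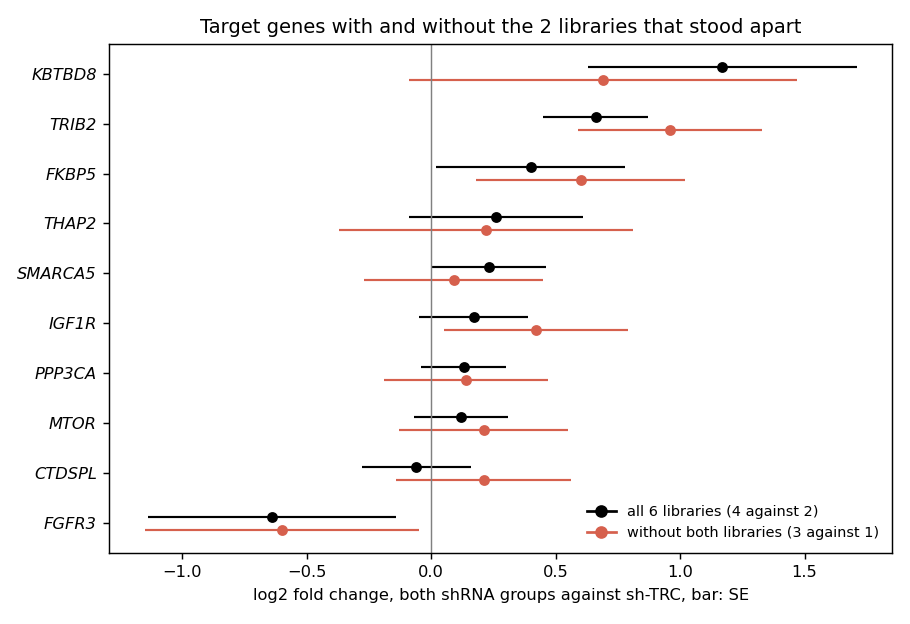
log2FC of both shRNA groups against sh-TRC (horizontal axis) with SE bars for each target gene, with all 6 libraries (black) and without sh-TRC replicate 2 and sh-MIR100HG-1 replicate 1 (red). TRIB2 moves from 0.66 to 0.96, KBTBD8 from 1.17 to 0.69 and CTDSPL from -0.06 to 0.21.

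To compare levels between genes, CPM were divided by the counted exon length in kilobases (RPKM). In sh-TRC the order of the mean levels, with SD over 2 libraries, was PPP3CA (27.1 ± 0.815 RPKM), SMARCA5 (16.4 ± 2.48), CTDSPL (10.7 ± 2.84), TRIB2 (8.16 ± 1.94), MTOR (7.64 ± 1.08), FKBP5 (5.34 ± 0.203), IGF1R (3.73 ± 0.74), FGFR3 (1.31 ± 0.645), THAP2 (0.4 ± 0.0355) and KBTBD8 (0.0975 ± 0.0567). The highest was 278 times the lowest. Neighbours whose control libraries overlapped were CTDSPL and TRIB2, and TRIB2 and MTOR. Over all 6 libraries PPP3CA stood apart from the next member, IGF1R from FGFR3 and THAP2 from KBTBD8, and the ranges of the other neighbours overlapped.

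For each member the gene with the most similar profile over the 6 libraries was found among 12557 genes of at least 1 CPM on average, by the root mean square difference of log2 CPM centred on their means. For FGFR3 it was EGF, a growth factor gene, at a difference of 0.204, and EGF also had both libraries set apart above the other 4 (7.62 to 10.3 against 2.6 to 5.4 CPM). For TRIB2 it was TBCCD1 (0.0893), for KBTBD8 FRRS1 (0.144) and for FKBP5 TUFT1 (0.0721). The other members had a neighbour at 0.0429 or less: BMI1 for SMARCA5, ARMC10 for MTOR, NEIL2 for IGF1R, STEEP1 for PPP3CA, GNB2 for CTDSPL and NECTIN3 for THAP2. With 6 points and this many genes a close neighbour is a description of the profile only.

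The members were then read beside all genes with the same seed match, which include the members with a site in the longest 3′UTR. The 320 genes with a site in the longest 3′UTR had a median log2FC of 0.03 after knockdown, the 13991 with a 3′UTR -0.03, and 54.1% against 46.8% were above 0. At an unadjusted p under 0.05, 19 were higher and 8 lower, together 8.44%, beside 8.04% of all genes with a 3′UTR, and 0 passed adjustment in edgeR. The 44 genes with an 8mer had a median of 0.07. Within the members the 5 with an 8mer in the longest 3′UTR (IGF1R, FGFR3, CTDSPL, THAP2 and KBTBD8) had a median of 0.17 and the 4 with a 7mer-m8 (MTOR, SMARCA5, PPP3CA and TRIB2) of 0.18.

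In single libraries the median log2 difference of the 320 genes from the control mean was 0.12 and 0.01 in sh-MIR100HG-1 and 0.10 and -0.02 in sh-MIR100HG-2, in the order of replicates 1 and 2. The SD over the 4 libraries was 0.07, and replicate 1 was the higher in both shRNA groups. Genes with a site had longer 3′UTRs, with a median of 3276 bases against 1451, and the part of length in the shift was not tested. Genes with a site for miR-125b had a median log2FC of -0.02 and those with a site for let-7a of 0.02.

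**Figure D5:**
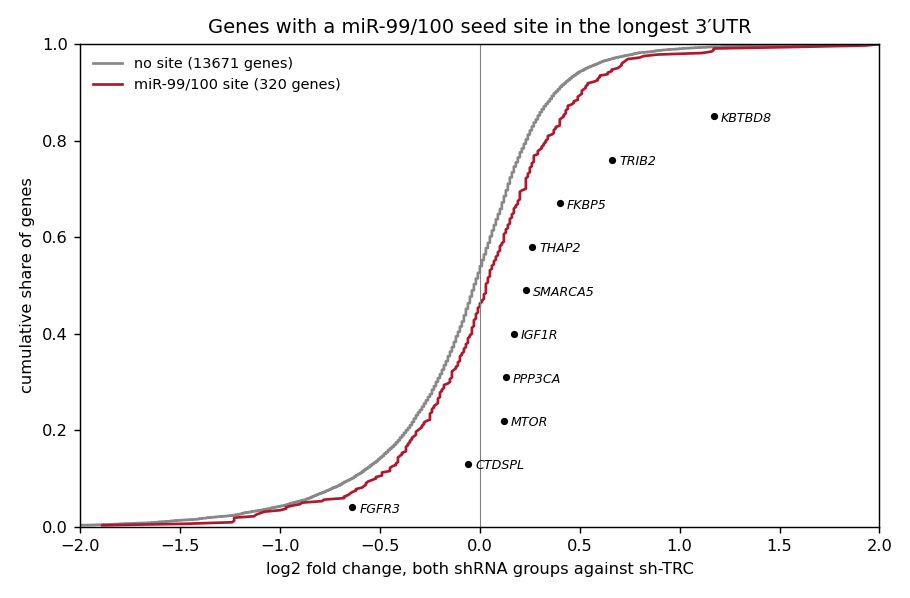
Cumulative share of genes (vertical axis) by log2FC of both shRNA groups against sh-TRC (horizontal axis, drawn from -2 to 2) for 320 genes with a miR-99/100 site in the longest 3′UTR (red) and 13671 without (grey). Black points show the 10 members at their log2FC, and their height has no meaning. The median with a site is 0.03 and without -0.03.

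Over all the lists of related genes, 151 genes were fixed besides the members and 135 were tested. At an unadjusted p under 0.05, 6 were higher and 6 lower, which is 8.89% beside 7.68% of all genes, and edgeR called 0 at an adjusted p of 0.05. Of the 17 tested genes of the list of further reported miR-99/100 targets, 2 were higher (FZD5 and BAZ2A) and 0 lower at this limit for both shRNA groups together. All genes gave 7.68% in either direction and 3.23% higher. With sh-MIR100HG-2 alone 4 of the list were higher and 1 lower, beside 8.86% of all genes and 3.71% higher. The count for both groups was 0 without sh-TRC replicate 1, 4 without sh-MIR100HG-2 replicate 1 and 1 without replicate 2 of either shRNA. FZD5, a Wnt receptor, was at 10.9 and 14.5 CPM in sh-TRC and at 17.2 to 24.3 CPM in the 4 knockdown libraries (log2FC 0.72, unadjusted p = 0.0171, edgeR adjusted p = 0.562). Of the other hosts of the family, SPACA6, whose locus holds miR-99b, was at 3.7 and 5.16 CPM in sh-TRC and at 1.98 to 3.39 CPM after knockdown (log2FC -0.63 ± 0.33), and MIR99AHG, which hosts miR-99a, was at 0 CPM in 4 libraries and under 0.1 CPM in the other 2.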

How the data were processed

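RNA-seq was carried out by the authors on total RNA of 6 libraries. The values they deposited are counts of reads on the exons of each gene, not normalized. These were made by mapping to GRCh37 with STAR and counting with FeatureCounts. The submitters' processing notes give STAR 2.5.2a, while the methods of the study name another version. Handling of strand and of reads that map to several places is not given in the sources used here.

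A gene was dropped where 3 or more of the 6 samples had under 5 counts (12373 genes), which left 15372. These were tested with edgeR 4.0.16 in R 4.3.3 (TMM normalization, quasi-likelihood test, 3 groups in a single model, 3 residual degrees of freedom, Benjamini-Hochberg adjustment). The script was tested on simulated data. Permutation tests were exact and two-sided over 15 splits. A pseudocount of 0.1 CPM was used for log2 levels. Alternatives were the likelihood ratio test, DESeq2 1.42.0, RLE size factors, no filter, the bias-adjusted fit, a replicate block and leaving out each library. Leaving out both libraries that stood apart was chosen after seeing the data. 3′UTRs came from a GENCODE annotation of GRCh37 of a later release than the study names, and symbols were matched for 14714 tested genes. The spread between replicates (common coefficient of variation 27.8%) exceeded sampling noise in every group. The members, lists and tests were chosen with earlier results of these data known. Of the marker genes, 1 is not reported here. By rule, the text was to name all members, their direct paralogs and complex partners, and the genes with the smallest and second smallest p of each list. Some genes are named outside this rule, among them RCAN2, IGF1 and AGO2.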

Additional observations from a re-analysis of the deposited data

How the results depend on the processing

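No alternative called a member at an adjusted p of 0.05 in any of the 4 comparisons. With no filter, the weight given to the trend of spread over genes (prior degrees of freedom) was infinite, against 5.37 in the main fit. Its test thus no longer used the spread of each gene, and more changed than the genes tested. Over all genes, the main quasi-likelihood test called 0 in each comparison at an adjusted p of 0.05. For both shRNA groups against control the count was 109 with the likelihood ratio test, 130 with DESeq2, 392 with no filter and 2 without both libraries that stood apart. With a log2FC beyond 2 as well it was 26, 9, 123 and 2. For sh-MIR100HG-1 it was 34, 66 and 227 with the first 3 of these, and 0 without both libraries. For sh-MIR100HG-2 it was 121, 167, 517 and 14, and between the shRNAs 91, 103, 679 and 15. Leaving out 1 library at a time gave 0 to 3, 0 to 4 and 0 to 7 in these 3 comparisons, and 0 for both groups together.

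Members at an unadjusted p under 0.05 numbered 2 for both groups against control with the likelihood ratio test, DESeq2, the bias-adjusted fit and the replicate block. They numbered 1 for sh-MIR100HG-1 without both libraries, 2 for sh-MIR100HG-2 with no filter and with the block whose control numbers were crossed, and 1 between the shRNAs with no filter. Leaving out 1 library gave 1 to 2 for both groups, 0 to 2 for each shRNA and 0 to 1 between them. Members whose groups did not overlap numbered 5 without both libraries (beside 50.6% of all genes) and 2 to 4 when 1 library was left out. List genes at this limit, 12 with hosts and members left out, numbered 21 with no filter, 22 with the crossed block, 7 without both libraries and 7 to 24 when 1 library was left out. Shares of all genes at these limits are given only for the main fit and without both libraries. With no share beside them, the other counts of members and list genes are not read as results about these genes. The median of genes with a seed site stayed between 0.00 and 0.08.

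Leaving out 1 library gave -0.02 to 0.27 for MTOR, -0.02 to 0.39 for IGF1R and -0.31 to 0.24 for CTDSPL. Signs turned for MTOR and IGF1R (-0.02 each without sh-TRC replicate 1) and for CTDSPL (0.24 without sh-TRC replicate 2, 0.01 without sh-MIR100HG-2 replicate 1 and 0.21 without both libraries). The cause was not tested. Replicate numbers did not pair the shRNA libraries with the controls. The deviations of same-numbered libraries correlated at -0.205 between sh-TRC and sh-MIR100HG-1 and at 0.00629 between sh-TRC and sh-MIR100HG-2. Between the shRNA groups they correlated at 0.436, so same-numbered knockdown libraries did deviate in part together. With the replicate block the log2FC of TRIB2 was 0.67 (adjusted p = 0.367) and that of FKBP5 0.25, in edgeR. MIR100HG passed adjustment with the likelihood ratio test (adjusted p = 1.21e-06), DESeq2 (adjusted p = 5.09e-07) and no filter (adjusted p = 2.77e-10), with log2FC of -1.86, -1.84 and -1.86. The p with no filter rested on the trend of spread over genes, not on the spread of MIR100HG itself.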
